A study of Mus musculus with 8 samples.

Results

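The unfolded protein response was followed here through 10 genes of the endoplasmic reticulum (ER): Ern1, Xbp1, Herpud1, Edem1, Dnajb9, Dnajc3, Sdf2l1, Hspa5, Hsp90b1 and Pdia4. They were chosen by name, as sensor, factor and chaperone genes of the response, and are 10 of the 23284 genes in the deposited table. The cells were P19, embryonal carcinoma cells of the mouse with features of the early embryo. One arm received a control siRNA (control arm) and the other an siRNA against Upf3a (knockdown arm), a gene of nonsense-mediated mRNA decay, the pathway that removes mRNAs with a premature stop codon. Actinomycin D, a blocker of transcription, was added to both arms 24 h after transfection, and total RNA was taken 0, 15, 105 and 225 min later. No group received an agent that causes ER stress, and no culture without actinomycin D was analysed here apart from the 0 min time point. The 8 conditions each have 1 deposited value per gene that combines 2 cultures named in the labels, so n counts time points and the spread between cultures is not seen.

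Proteins that enter the ER are folded by chaperones, and proteins that fail to fold are sent back to the cytosol and degraded. When unfolded proteins build up, the membrane sensor Ern1 (IRE1 alpha) cuts the Xbp1 mRNA, and the rejoined mRNA encodes an active transcription factor. That factor, together with Atf6 and the kinase Eif2ak3 (PERK), raises the transcription of chaperone and degradation genes. Hspa5 (BiP), the main Hsp70 chaperone of the ER, also holds the sensors in their inactive state.

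The site at which Ern1 acts on Xbp1 mRNA is shown first because a gene-level value cannot tell the cut form from the uncut form. The sequence lies in exon 4 of Xbp1, on the plus strand at chr11:5524257-5524332 (GRCm38), and capitals mark the 26 bases that are removed, at chr11:5524282-5524307.
Xbp1: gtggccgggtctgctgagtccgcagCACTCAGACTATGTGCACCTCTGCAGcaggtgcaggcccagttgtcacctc
The coding sequence in the GENCODE vM21 model encodes 267 residues with these bases and 371 without them. Reads of both forms enter the same Xbp1 value below.

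The promoters of the 10 genes were searched for the letters of the ER stress response element (ERSE), the site through which Atf6 and Xbp1 act together with the factor NF-Y. ERSE was taken as CCAAT, any 9 bases and CCACG, and ERSE-II as ATTGG, any 1 base and CCACG, on both strands. The promoters, from 250 bases before to 50 bases after the start site, came from RefSeq on GRCm38.p6, and all 10 genes matched by symbol. ERSE was found in Hspa5, Hsp90b1 and Dnajc3, 3 of 10, against 0.13% of 27025 promoters. ERSE-II was found in Herpud1, against 0.04% of promoters. The members were chosen as genes of the response in which these elements act. An excess over all promoters may come with that choice and is not a test. A CCAAT box, part of ERSE and, read on the other strand, of ERSE-II, was present in 8 of 10 members and in 37.9% of promoters. Of the kinds described further below, the 3 genes with ERSE belong to the stable kind and Herpud1, with ERSE-II, to the short-lived kind. With 1 mismatch allowed in CCACG, Herpud1 and the stable Pdia4 also had ERSE, against 1.03% of promoters. A link between these elements and the loss of mRNA was not tested. Xbp1, Ern1 and Dnajb9, short-lived like Herpud1, had neither element in the windows searched. The Xbp1 window, chr11:5520391-5520690, ends before the locus of Xbp1 in the deposited table, which starts at 5520967. The bases next to that start were therefore not searched. Every exact match is given below on the strand of the gene with 20 bases on each side and with the match in capitals.
Hspa5: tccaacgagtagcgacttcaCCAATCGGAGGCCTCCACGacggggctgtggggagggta
Hsp90b1, upstream match: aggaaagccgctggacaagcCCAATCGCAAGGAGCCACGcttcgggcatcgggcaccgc
Hsp90b1, downstream match, with the element on the other strand: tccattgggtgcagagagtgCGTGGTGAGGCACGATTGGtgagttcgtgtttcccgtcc
Dnajc3: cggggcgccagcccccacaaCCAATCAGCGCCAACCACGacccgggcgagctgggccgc
Herpud1: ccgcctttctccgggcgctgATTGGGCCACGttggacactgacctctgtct
The Hspa5 window lies at chr2:34772005-34772063 (plus strand) and its match begins 65 bases before the start site. The Hsp90b1 windows lie at chr10:86705618-86705676 and chr10:86705513-86705571 (minus strand), with matches that begin 212 and 107 bases before the start. The Dnajc3 window lies at chr14:118937807-118937865 (plus strand), with its match 105 bases before the start. The Herpud1 window lies at chr8:94386357-94386407 (plus strand), with its match 52 bases before the start.

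All 8 conditions could be used. FPKM (fragments per kilobase of transcript scaled to the library, so that levels of different genes can be compared per length) summed to 537350 to 923333 per condition, and 10832 to 11600 genes reached an FPKM of 1. Read depth is unknown, and precision is taken from the lower and upper limits in the deposited table, whose confidence level is not stated. In the median gene the upper limit exceeded the value by 32.0% to 32.5%, depending on the condition. Upf3a itself was 13.6, 13.9, 14.0 and 15.0 FPKM in the control arm at 0, 15, 105 and 225 min and 5.27, 4.52, 4.76 and 4.16 FPKM in the knockdown arm, or 27.7% to 38.8% of control, with limits apart each time. Embryonal carcinoma markers were high, with Pou5f1 (Oct4) at a mean of 2014 FPKM and Lin28a at 272 FPKM, while Zfp42 averaged 0.929 FPKM. Of the 9 such markers tested, 7 were higher in the knockdown arm and 0 were lower, and their summed FPKM ran from 2083 to 3439 in the control arm and from 2557 to 4276 in the knockdown arm. Of 11 neural markers, 6 averaged under 1 FPKM, among them Pax6 at 0.315 and Neurog1 at 0.106 FPKM. Others were higher, with Tubb3 at 49.5, Nes at 10.1 and Elavl3 at 7.03 FPKM. The sum of all 11 was 67.3 to 91.3 FPKM in the control arm and 59.7 to 76.6 in the knockdown arm. Of 10 fibroblast and smooth muscle markers, 5 averaged under 1 FPKM, and Tagln was highest at 11.6 FPKM. The sum of all 10 was 23.7 to 40.9 FPKM in the control arm and 24.3 to 42.5 in the knockdown arm. Of 10 endoderm markers, 6 averaged under 1 FPKM, and Col4a1 was highest at 17.3 FPKM. The sum of all 10 was 22.0 to 29.2 FPKM in the control arm and 22.5 to 28.7 in the knockdown arm. The part of these marker differences in the results below was not tested.

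The genes separated by what happened to their mRNA after transcription stopped. Xbp1, Herpud1, Dnajb9 and Ern1 lost much of their FPKM within 225 min in both arms. Hspa5, Hsp90b1, Pdia4, Dnajc3, Edem1 and Sdf2l1 kept theirs or rose relative to the rest of the mRNA. Under quantile normalization this split did not hold for every gene. Hspa5 (-0.191 log2 units per hour) and Hsp90b1 (-0.089) then fell more steeply than Ern1 (-0.072). FPKM is a share of the library with no outside standard, so each change is relative to the bulk of mRNA and a fall of the bulk itself is not seen.

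**Figure D1:**
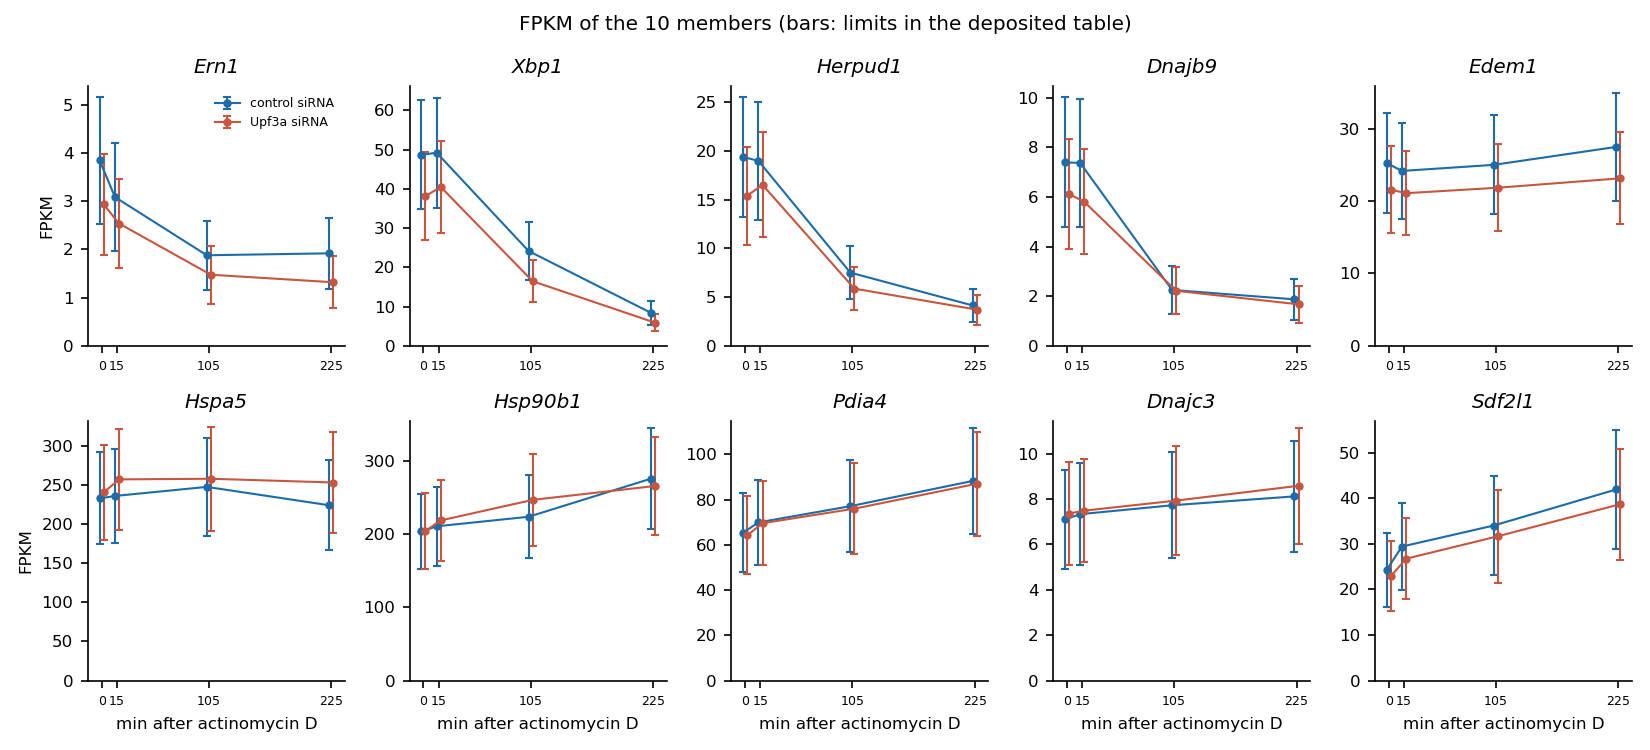
FPKM (vertical axis, from 0) of each of the 10 genes against minutes after actinomycin D, in the control siRNA (blue) and Upf3a siRNA (red) arms; points are the single deposited values and bars the limits of the deposited table. Xbp1, Herpud1, Dnajb9 and Ern1 end well under their 0 min value in both arms, and the bars of the arms overlap at every time for every gene.

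The sensor and its target came first. Ern1, on chromosome 11 (106394650 to 106487852, minus strand), had a low level: 3.84, 3.08, 1.88 and 1.92 FPKM in the control arm at 0, 15, 105 and 225 min and 2.93, 2.54, 1.47 and 1.32 FPKM in the knockdown arm. Already at 15 min it was at 80.2% (control) and 86.5% (knockdown) of its start, and at 225 min at 49.9% and 44.9%. The fall came before 105 min, and the last interval changed log2 FPKM by 0.030 in the control arm and by -0.162 in the knockdown arm. Its limits at 0 and 225 min were apart in the knockdown arm and overlapped in the control arm.

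Xbp1 (chromosome 11, 5520659 to 5525893, plus strand) was the factor gene with the steepest loss. It stood at 48.7, 49.2, 24.1 and 8.38 FPKM in the control arm and at 38.1, 40.5, 16.4 and 5.88 FPKM in the knockdown arm. No fall was seen by 15 min in either arm. After that log2 FPKM changed by -0.684 per hour and then by -0.763 per hour in the control arm, and by -0.866 and -0.742 per hour in the knockdown arm. At 225 min 17.2% of the 0 min value was left in the control arm and 15.4% in the knockdown arm, with limits at 0 and 225 min apart in both.

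Herpud1 and Edem1 act in ER-associated degradation. Herpud1, a membrane protein of the degradation complex (chromosome 8, 94386438 to 94395377, plus strand), was at 19.4, 18.98, 7.51 and 4.14 FPKM in the control arm and 15.4, 16.5, 5.87 and 3.71 FPKM in the knockdown arm, which left 21.3% and 24.0% at 225 min. Its loss was steeper from 15 to 105 min, where log2 FPKM changed by -0.891 per hour in the control arm and by -0.996 in the knockdown arm, than from 105 to 225 min, where it changed by -0.430 and -0.331 per hour. Edem1, which directs misfolded glycoproteins to degradation (chromosome 6, 108828641 to 108859356, plus strand), was nearly flat: 25.3, 24.2, 25.01 and 27.5 FPKM in the control arm and 21.6, 21.1, 21.9 and 23.1 FPKM in the knockdown arm. Every knockdown value of Edem1 was lower than every control value.

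The co-chaperones of Hspa5 differed among themselves. Dnajb9 (ERdj4, chromosome 12, 44205559 to 44210326, minus strand), a J protein that binds misfolded proteins and Ern1, was at 7.40, 7.37, 2.25 and 1.87 FPKM in the control arm and 6.12, 5.81, 2.22 and 1.67 FPKM in the knockdown arm. Most of its loss fell between 15 and 105 min, where log2 FPKM changed by -1.14 per hour in the control arm and by -0.927 in the knockdown arm, and 25.3% and 27.3% were left at 225 min. Dnajc3 (p58IPK, chromosome 14, 118937976 to 118981697, plus strand), a J protein also known as an inhibitor of Eif2ak3, went the other way, from 7.09 through 7.33 and 7.72 to 8.11 FPKM in the control arm and from 7.36 through 7.49 and 7.93 to 8.58 FPKM in the knockdown arm. Sdf2l1 (chromosome 16, 17130138 to 17132383, minus strand), a partner of Hspa5 and the J proteins, gained most: 24.2, 29.4, 34.0 and 41.9 FPKM in the control arm and 22.9, 26.7, 31.7 and 38.7 FPKM in the knockdown arm, or 172.9% and 169.3% of the start. Dnajb9 and Dnajc3 began at like levels, with Dnajc3 at 95.9% of Dnajb9 in the control arm and 120.2% in the knockdown arm, and ended apart, with Dnajc3 at 433.4% of Dnajb9 in the control arm and 513.3% in the knockdown arm at 225 min.

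The abundant chaperones held or gained FPKM. Hspa5 (chromosome 2, 34771970 to 34777547, plus strand) was at 233, 236, 248 and 224 FPKM in the control arm and 241, 257, 258 and 253 FPKM in the knockdown arm. Hsp90b1 (Grp94, the Hsp90 of the ER, chromosome 10, 86690209 to 86705509, minus strand) was at 204, 211, 224 and 276 FPKM in the control arm and 204, 219, 247 and 266 FPKM in the knockdown arm. Pdia4 (ERp72, a protein disulfide isomerase, chromosome 6, 47796141 to 47813430, minus strand) was at 65.4, 69.9, 77.1 and 88.3 FPKM in the control arm and 64.2, 69.6, 76.0 and 87.0 FPKM in the knockdown arm. At 225 min Hspa5 was at 96.3% and 105.3% of its start, Hsp90b1 at 135.4% and 130.1%, and Pdia4 at 135.0% and 135.5%, in the control and knockdown arms in turn. At matched times the arms crossed for Hsp90b1, which was lower in the knockdown arm at 1 of 4 times. Pdia4 was slightly lower in the knockdown arm at all 4 times, at 98.2% to 99.5% of control. Exons of Hsp90b1 overlap those of 1810014B01Rik on the other strand and of Gm15344, Dnajb9 those of Mir5627 on the other strand, and Pdia4 those of Mir704; whether counting used strand is not stated, so reads of these pairs may be mixed.

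By level, the control arm at 0 min ordered the genes as Hspa5, Hsp90b1, Pdia4, Xbp1, Edem1, Sdf2l1, Herpud1, Dnajb9, Dnajc3 and Ern1. In that order the limits overlapped between Hspa5 and Hsp90b1, between Pdia4 and Xbp1, between Edem1, Sdf2l1 and Herpud1, and between Dnajb9, Dnajc3 and Ern1. At 225 min the order in the control arm was Hsp90b1, Hspa5, Pdia4, Sdf2l1, Edem1, Xbp1, Dnajc3, Herpud1, Ern1 and Dnajb9, so that Xbp1 had come from 4th place to near the level of Dnajc3 and Dnajb9 to that of Ern1.

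**Figure D2:**
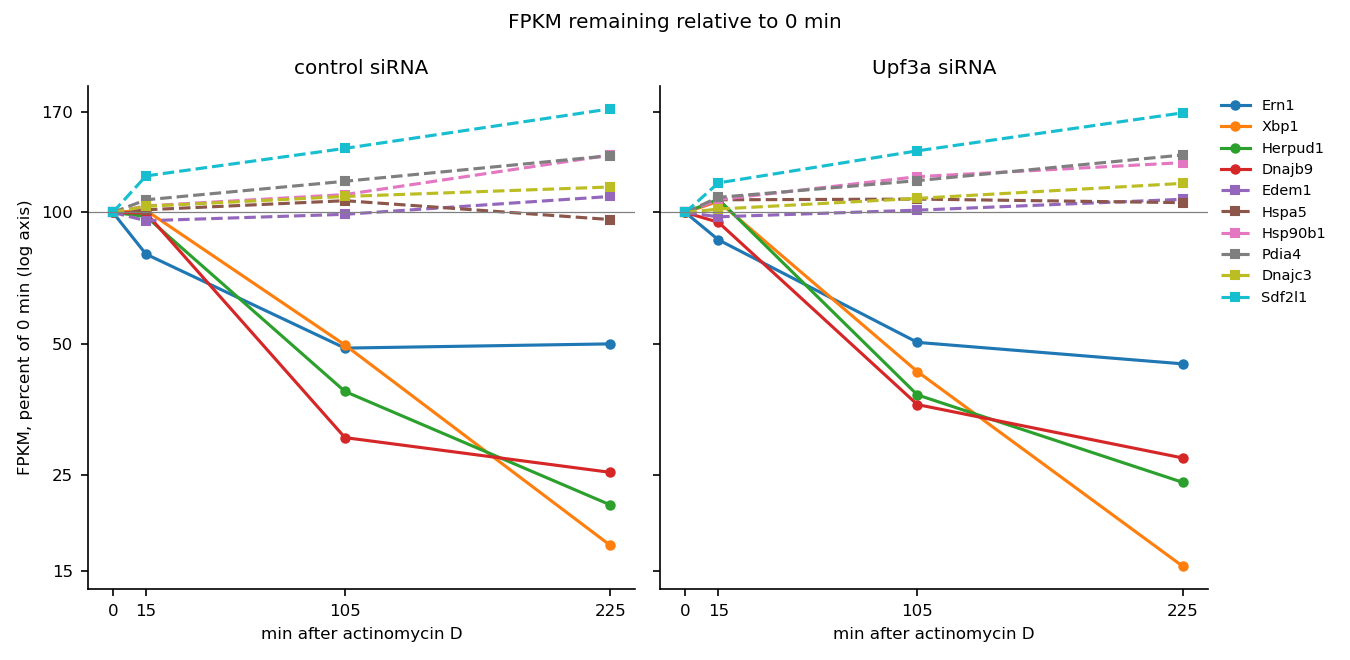
FPKM as a percent of the 0 min value of the same arm (vertical log axis) against minutes after actinomycin D, with 1 panel per arm; solid lines with circles are Ern1, Xbp1, Herpud1 and Dnajb9 and dashed lines with squares the other genes. At 225 min the solid lines end between 15.4% and 49.9% and the dashed lines between 96.3% and 172.9%; under scaling to ribosomal protein genes all 10 genes had a falling slope.

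The slope over time was then fitted over both arms with limma on log2(FPKM + 1), with the p-value adjusted by Benjamini-Hochberg over the 11452 genes with a mean FPKM of at least 1. The residuals measure how the 4 time points of the arms scatter, not how cultures differ. Xbp1 fell by 0.68 log2 units per hour (SE 0.025, adjusted p = 4.5e-07), and only 0.52% of genes had a lower slope. Herpud1 had a slope of -0.54 per hour (SE 0.047, adjusted p = 1.4e-05), Dnajb9 of -0.42 (SE 0.062, adjusted p = 2.7e-04) and Ern1 of -0.19 (SE 0.037, adjusted p = 0.0014). Written as relative half-lives, these slopes are 1.47 h for Xbp1, 1.85 h for Herpud1, 2.36 h for Dnajb9 and 5.21 h for Ern1. The pseudocount of 1 lengthens the half-life of a low gene, and with a pseudocount of 0.1 the same order came out at 1.39, 1.67, 1.87 and 3.74 h. The order and the size of the slopes rest on the last time: without the 225 min values the slope was -0.77 per hour for Herpud1, -0.75 for Dnajb9, -0.66 for Xbp1 and -0.38 for Ern1. A single half-life averages over intervals that differed: from 105 to 225 min log2 FPKM of Dnajb9 changed by -0.133 per hour in the control arm and -0.203 in the knockdown arm, and that of Ern1 by 0.015 and -0.081. Under quantile normalization the slope of Ern1 was -0.07 per hour (adjusted p = 0.069 by limma). Relative to the median of all genes under that normalization Ern1 was at -0.10, Hspa5 at -0.22 and Hsp90b1 at -0.12.

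Of the other genes, Sdf2l1 (slope 0.18, SE 0.021), Pdia4 (0.11, SE 0.014), Hsp90b1 (0.10, SE 0.015), Dnajc3 (0.05, SE 0.012) and Edem1 (0.03, SE 0.013) rose relative to the bulk in the limma test. All 5 fell under scaling to ribosomal protein genes. Under quantile normalization Hsp90b1 fell, with a slope of -0.09 (adjusted p = 0.0023 by limma), and Pdia4 had a slope of -0.01 (0.49). Hspa5 had a slope of -0.002 per hour (SE 0.016, adjusted p = 0.92 by limma), but fell under quantile normalization, where 5 members fell in all, with a slope of -0.19 (adjusted p = 4.2e-05), and under scaling to ribosomal protein genes, with -0.30 (adjusted p = 3.1e-06). The rises of Edem1 and Dnajc3 depended on single times, and that of Edem1 also missed the threshold under median-of-ratios scaling (adjusted p = 0.11 by limma) and quantile normalization (0.075). Without the 0 min values the adjusted p was 0.050 for Edem1 and 0.051 for Dnajc3, and without the 225 min values 0.75 and 0.13, so that 3 members rose in either case; Edem1 also missed the threshold without 15 min (0.18) and without 105 min (0.057). In all, 4 of 10 members fell and 5 rose, where 38.6% of all genes tested fell and 42.7% rose. The median slope was 0.016 per hour over the members and 0.014 over all genes. Without rescaling, 77 of the 78 ribosomal protein genes rose, with a median slope of 0.30 per hour, above that of every member. Dividing by these genes therefore lowers the slopes of the members by construction. This scaling moved the median of all genes to -0.237 per hour, and all 10 members then fell. Relative to that median Sdf2l1 was at 0.13, Pdia4 at 0.05 and Hsp90b1 at 0.04, against -0.71 for Xbp1, -0.55 for Herpud1, -0.39 for Dnajb9 and -0.14 for Ern1. By the limits of the deposited table alone, 3 of 10 members (Xbp1, Herpud1 and Dnajb9) ended below their start in both arms, against 17.1% of all genes.

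**Figure D3:**
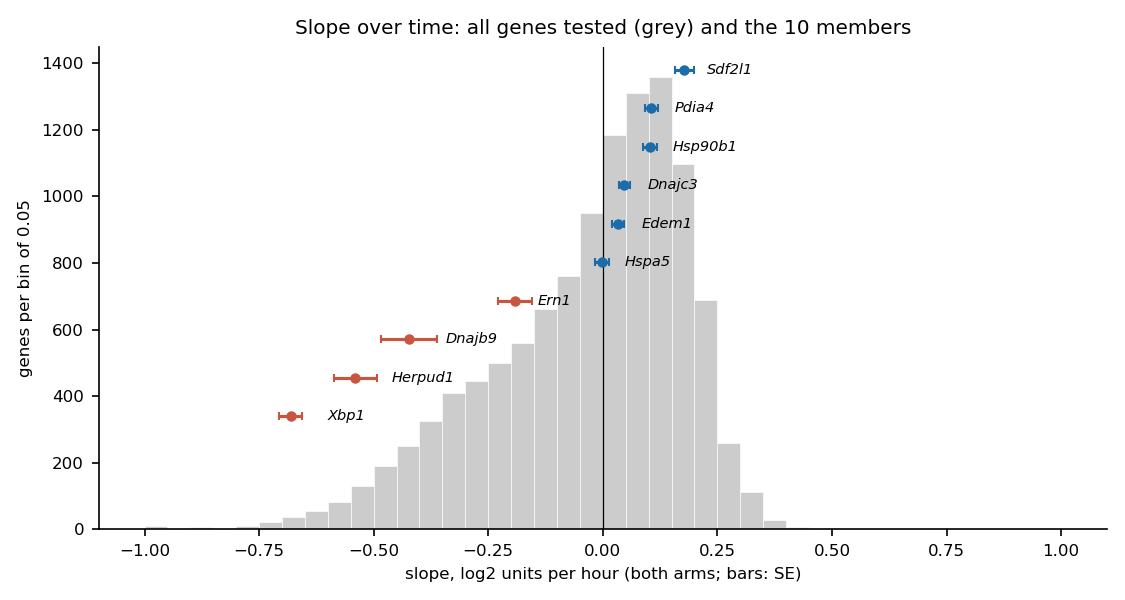
Histogram of the slope over time of all 11452 genes tested (grey, horizontal axis in log2 units per hour, vertical axis in genes per bin) with slopes past the axis ends counted in the end bins; points with SE bars, at arbitrary heights, are the 10 members, in red for Ern1, Xbp1, Herpud1 and Dnajb9 and in blue for the others. Xbp1, Herpud1 and Dnajb9 lie in the left tail, Ern1 lies closer to the centre, and the other members lie between -0.002 and 0.18; scaling to ribosomal protein genes moves the median of all genes to -0.237 and puts all 10 slopes under 0.

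The second question of the design was whether the level differs with less Upf3a. In the knockdown arm Xbp1, Ern1, Herpud1, Edem1 and Dnajb9 were lower in the limma test of the arm difference with time point as a factor. The mean log2 FPKM ratio over the 4 times was -0.43 ± 0.13 (SD) for Xbp1, -0.39 ± 0.11 for Ern1, -0.26 ± 0.097 for Herpud1, -0.22 ± 0.025 for Edem1 and -0.20 ± 0.14 for Dnajb9. As a share of control these are 68.1% to 82.3% for Xbp1 over the 4 times, 68.7% to 82.2% for Ern1, 78.1% to 89.6% for Herpud1, 84.2% to 87.4% for Edem1 and 78.7% to 98.4% for Dnajb9. Xbp1 and Ern1, the target and the cutting enzyme of 1 branch, had the largest drops of the 10, and both were lower at all 4 times.

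On the log2(FPKM + 1) scale, which understates low genes, the difference was -0.40 for Xbp1 (SE 0.053, adjusted p = 9.4e-04 by limma), -0.26 for Ern1 (SE 0.043, adjusted p = 0.0024), -0.23 for Herpud1 (SE 0.049, adjusted p = 0.0066), -0.21 for Edem1 (SE 0.040, adjusted p = 0.0045) and -0.16 for Dnajb9 (SE 0.056, adjusted p = 0.046). The Dnajb9 value missed the threshold without the 0, the 15 or the 225 min values (adjusted p = 0.15, 0.18 and 0.066 by limma) and in 7 of 11 alternatives in all. Sdf2l1 was at -0.11 (adjusted p = 0.058) and was lower at all 4 times, at 90.9% to 94.3% of control; it passed the threshold in 6 of 12 alternatives. Pdia4 was at -0.02 (adjusted p = 0.72), Hsp90b1 at 0.04 (0.54) and Dnajc3 at 0.05 (0.38). Hspa5 was at 0.10 (SE 0.043, adjusted p = 0.090) and, like Dnajc3, higher in the knockdown arm at all 4 times, at 103.3% to 113.0% of control. Scaling to ribosomal protein genes left 3 members lower (Xbp1, Ern1 and Herpud1), gave Edem1 an adjusted p of 0.095 and put Hspa5 past the threshold at 0.18.

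These counts have a broad background. Over all genes tested the knockdown arm had 22.3% lower and 26.1% higher, and under scaling to ribosomal protein genes 3852 genes were higher and 1256 lower in place of 2986 and 2557. Of the members, 5 of 10 were lower and 0 higher, with a median difference of -0.14 against 0.005 over all genes. Lower FPKM at all 4 times was found for 7 of 10 members and for 28.6% of all genes. The limits of the arms overlapped at all 4 times for all 10 members, and 2.9% of all genes had limits apart at 1 or more times. In a culture, fewer cells with an mRNA and less mRNA per cell cannot be told apart.

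**Figure D4:**
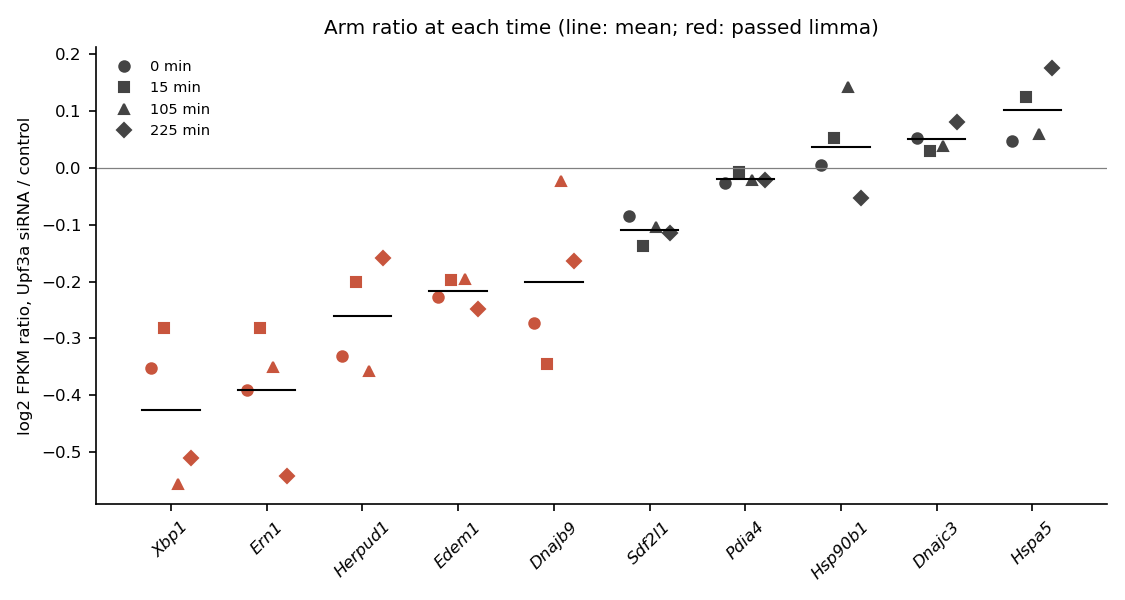
Log2 ratio of FPKM in the Upf3a siRNA arm over the control arm (vertical axis) for each gene at 0 (circle), 15 (square), 105 (triangle) and 225 min (diamond), with the mean as a black line; red marks genes that passed the limma test. All 4 points of Xbp1, Ern1, Herpud1, Edem1 and Dnajb9 lie under 0, as do those of Sdf2l1 and Pdia4; under scaling to ribosomal protein genes Edem1 and Dnajb9 miss the threshold and the fitted difference of Pdia4 is 0.06.

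Actinomycin D was added so that the arms could be compared in the rate of loss. The arm-by-time term of limma, with time point as a factor, gave 0 of 10 members past the threshold, and 0 at an unadjusted p under 0.05. Over all genes it gave 1 call, or 0.00873%, and 762 genes at an unadjusted p under 0.05. The difference in slope (knockdown minus control, log2 units per hour) lay between -0.04 for Xbp1 (95% interval -0.12 to 0.04) and 0.05 for Dnajb9 (-0.03 to 0.13). Herpud1 was at 0.03 (-0.05 to 0.11), Ern1 at -0.02 (-0.09 to 0.05) and Hspa5 at 0.02 (-0.05 to 0.09). The slopes of the arms themselves were close, at -0.66 and -0.70 for Xbp1, -0.56 and -0.52 for Herpud1, -0.45 and -0.40 for Dnajb9, and -0.18 and -0.20 for Ern1, control first. The standard errors were 0.027 to 0.034 log2 units per hour, and adjusted p by limma ran from 0.79 to 0.99. Each gene alone left 2 residual degrees of freedom. The intervals use 6.42, because limma borrows variance across genes, and would be wider without that. A p that misses the threshold does not show that the arms decay alike.

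Sequence features of the mRNA that the choice of genes did not use were set beside these slopes. ATTTA, the core of AU-rich elements in 3′ UTRs, occurred in 65.5% of the 10094 tested genes with a GENCODE vM21 coding model, which were 88.1% of all tested. Among the short-lived members Ern1 had 4, Dnajb9 4, Xbp1 3 and Herpud1 0, and among the others Hspa5 had 10, Dnajc3 6, Edem1 5, Pdia4 2, Hsp90b1 1 and Sdf2l1 0. In the GENCODE models ATTTA was thus found in 3 of 4 falling members, Ern1 among them, and in 5 of the other 6. Per kilobase of 3′ UTR there were 1.03 in Ern1, 3.03 in Xbp1 and 6.97 in Hspa5. A link between ATTTA and the slope was not tested. The windows of 27 bases with most ATTTA in the 3′ UTRs of Ern1, Xbp1 and Hspa5 are shown, with ATTTA in capitals.
Ern1: ttattgaatctATTTAtATTTATTTAa
Xbp1: gtgctttctccATTTATTTAaaactac
Hspa5: acttcttggagATTTATTTAgctttat
They lie in the last exons at chr11:106395133-106395159 (minus strand), chr11:5525838-5525864 (plus strand) and chr2:34776596-34776622 (plus strand). The Ern1 and Hspa5 windows lie outside the loci of these genes in the deposited table, chr11:106397620-106487796 and chr2:34772090-34776529. Whether the mRNAs measured here carry these 2 windows is therefore not known. All 4 ATTTA of Ern1 begin 3381 to 3404 bases after the stop codon, also outside its locus, as do its TATTTAT counted next. The ATTTA of Hspa5 at base 494 and later lie outside its locus too. The counts for Ern1 and Hspa5 and the 3′ UTR length of Ern1 below thus describe the GENCODE models. The longer TATTTAT, which contains ATTTA, occurred 3 times in Ern1, 2 times in Edem1, 1 time in Dnajc3 and in none of the other 7 members, against 27.8% of genes with at least 1. The 3′ UTRs ran from 262 bases in Hsp90b1 to 3892 in Ern1, with 622 in Herpud1, 989 in Xbp1 and 1395 in Dnajb9, around a median of 959 over all modelled genes. Each model was the protein-coding transcript with the longest coding sequence, so transcripts annotated as targets of nonsense-mediated decay were left out beforehand. In these models no member had an exon junction more than 50 bases after the stop codon, an arrangement that can mark such a target. It was present in 0.27% of all modelled genes. Because of that selection, the count cannot tell whether a member is a target. A match in letters is a description of these models and not a measured site.

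The genes whose pattern was most like that of 3 leading members were found by Pearson's r on log2(FPKM + 1) over the 8 conditions, among 8099 genes with a mean FPKM of at least 5. For Ern1 they were Shprh (r = 0.994), Fv1 (0.992) and Rc3h2 (0.987). For Xbp1 they were Ccdc99 (0.999), Tssc4 (0.999) and Vps37b (0.999). For Hspa5 they were Pcyox1l (0.962), Mrpl38 (0.946) and Reep4 (0.946). Tssc4, for example, went from 40.2 through 38.3 and 24.2 to 11.5 FPKM in the control arm and from 32.0 through 32.2 and 17.9 to 9.11 FPKM in the knockdown arm, lower in the knockdown arm at each time, as Xbp1 was. The points share libraries and their scaling, so these values carry no test.

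The rest of the pathway was read from lists that left out the 10 members. Eif2ak3, Rpn1 and H47 (matched from the names Sels and Vimp) each stand in 2 of these lists. Of 17 tested sensors and factors of the response, 7 were higher in the knockdown arm and 4 lower, with a median difference of 0.09, and 6 rose and 7 fell over time. Scaling to ribosomal protein genes gave 10 higher and 3 lower between arms and 0 rising and 17 falling. Eif2ak3, the sensor of the branch that slows translation, averaged 10.5 ± 4.35 FPKM (SD, n = 4 time points) in the control arm and 7.69 ± 3.41 in the knockdown arm, a difference of -0.41 (adjusted p = 3.2e-04 by limma) close to that of Xbp1. Its slope was -0.38 per hour (adjusted p = 1.8e-06 by limma), with 34.8% left at 225 min in the control arm and 30.8% in the knockdown arm. Mbtps2, a protease that releases Atf6, was higher by 0.60 (3.603 ± 0.320 against 5.99 ± 0.573 FPKM), and the membrane-bound factors Creb3l1 and Creb3l2 differed by 0.31 and -0.51. Bax, an effector of cell death, had a slope of 0.23 per hour, and of -0.06 under scaling to ribosomal protein genes.

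Of 23 tested genes of the Eif2ak3 and Atf4 branch, the knockdown arm had 4 higher and 9 lower, with a median of -0.09, and 10 rose and 11 fell over time. Quantile normalization gave 5 rising and 12 falling, and scaling to ribosomal protein genes 0 rising and 23 falling, with 4 higher and 7 lower between arms. Sesn2, a stress-induced sestrin, was higher by 0.46 (10.6 ± 5.16 against 15.0 ± 6.99 FPKM) and fell by 0.43 per hour. Mthfd2, a mitochondrial folate enzyme, was lower by 0.38 on the log2 scale (value -0.38, 71.4 ± 9.39 against 54.8 ± 8.09 FPKM). Ppp1r15a (GADD34), the phosphatase subunit that restores translation, had a difference of -0.26 (adjusted p = 0.0024 by limma), and the pseudokinase gene Trib3 fell by 0.42 per hour with 23.1% and 21.7% left.

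Of 34 other ER chaperones and folding enzymes, 25 rose over time relative to the bulk and 3 fell, with a median slope of 0.15 per hour, whereas all 34 fell under scaling to ribosomal protein genes. P4hb (protein disulfide isomerase) went from 274 to 483 FPKM in the control arm and from 253 to 476 in the knockdown arm, with a slope of 0.23 per hour (0.03, adjusted p = 0.063 by limma, under quantile normalization and -0.06 under the ribosomal scaling), and the related Pdia5 had a slope of 0.23 per hour (-0.05 under the ribosomal scaling). Between arms 7 of the 34 were higher and 11 lower, and with the ribosomal scaling 11 were higher and 4 lower, and with quantile normalization 7 and 15. Calr (calreticulin) was higher by 0.35 (231 ± 39.5 against 296 ± 55.8 FPKM), Erp44 by 0.37 and Fkbp10, a prolyl isomerase, by 0.49, while Uggt2, of the glycoprotein folding sensor family, had a difference of -0.32.

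Of 28 tested genes of ER-associated degradation, the knockdown arm had 5 higher and 5 lower, and 10 rose and 9 fell over time. This balance turned with the scaling: between arms 3 were higher and 9 lower with median-of-ratios scaling, 4 and 9 with quantile normalization, and 9 and 4 with scaling to ribosomal protein genes, under which 0 rose and 27 fell over time. The largest named difference was that of Aup1, a membrane protein of the degradation complex, at 0.91 (31.5 ± 2.86 against 60.5 ± 10.8 FPKM, adjusted p = 2.9e-04 by limma). The ubiquitin-conjugating enzyme gene Ube2j1 was higher by 0.44, while Ubxn8 had a difference of -0.56. Rnf139, a ligase, fell by 0.48 per hour with 18.9% and 17.4% left, which is near the remaining share of Xbp1, and Derl2, of the derlin channel family, fell by 0.27 per hour.

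Of 31 tested genes of translocation and signal peptide processing, 22 rose over time relative to the bulk and 4 fell, and 0 rose and 27 fell under scaling to ribosomal protein genes. The channel subunit gene Sec61b went from 267 to 604 FPKM in the control arm and from 254 to 588 in the knockdown arm, with a slope of 0.32 per hour that was 0.02 (adjusted p = 0.27 by limma) under the ribosomal scaling, and Ddost had a slope of 0.24 per hour (-0.06 under the ribosomal scaling). Between arms 6 were higher and 4 lower, and the counts were 6 and 6 with median-of-ratios scaling, 5 and 9 with quantile normalization and 17 and 1 with the ribosomal scaling; Srp68 was higher by 0.68, Srprb by 0.68 and Stt3a by 0.57, and Tram2 differed by -0.38. Of 6 tested mRNAs that Ern1 cuts in other cells, Pdia4 aside, 3 were higher and 2 lower with the knockdown, against 3 and 0 with the ribosomal scaling and 1 and 2 with quantile normalization. Bloc1s1, the best known of them, differed by -0.21 (adjusted p = 0.0076 by limma), Hgsnat by -0.15, Rpn1 by 0.17 and Sparc by 0.18. Bloc1s1 and Hgsnat missed the threshold with the ribosomal scaling (adjusted p = 0.12 and 0.27 by limma) and Sparc with quantile normalization (0.060). Without the 15 min values Hgsnat, Rpn1 and Sparc missed it (0.084, 0.059 and 0.097), and Sparc also without 105 or 225 min (0.070 and 0.063). Over time 5 of these 6 rose and 1 fell, and all 6 fell under the ribosomal scaling; the slopes of Bloc1s1 and Sparc were 0.24 and 0.22 per hour, or -0.05 and -0.08 under that scaling.

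**Figure D5:**
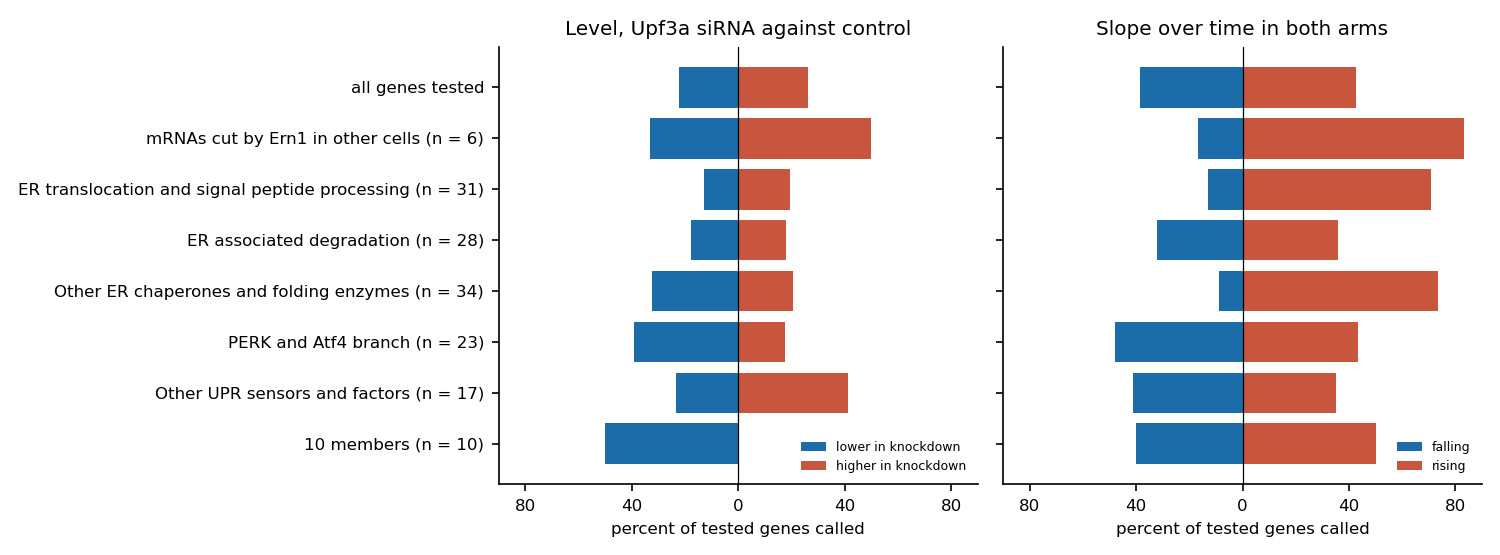
Percent of the tested genes of each list that passed limma (horizontal axis, 0 in the middle), lower or falling to the left in blue and higher or rising to the right in red, for the level between arms (left panel) and the slope over time (right panel). The 10 members have 5 lower and 0 higher, and chaperones and translocation genes have 73.5% and 71.0% rising against 42.7% of all genes; under scaling to ribosomal protein genes 0 genes of these 2 lists rise.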

How the data were processed

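RNA of P19 cells was sequenced in 8 conditions (2 siRNA arms, 4 times). Reads were aligned with TopHat2 and quantified with Cufflinks on mm10, per the submitters' processing notes (no versions); the gene annotation they used is not given in the sources. The authors deposited 1 FPKM value per gene and condition with 2 limits and a status, per the file headers, and combined 2 cultures per condition, per the labels; how is not stated. All member values had an accepted status. Low FPKM values did not fall on multiples of a read, so no counts were recovered.

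Genes averaging an FPKM of 1 or more over the conditions (11452) entered as log2(FPKM + 1). The tests used limma 3.58.1 in R 4.3.3 (eBayes without trend), with Benjamini-Hochberg adjustment over all of them and a threshold of 0.05: arm with time as a factor (3 residual degrees of freedom), arm by hours (2) and hours with arm (5). Python 3.11.15 read the table. With 1 value per condition the p-values cover only the spread between time points, which may be technical. Alternatives were the pseudocount, the filter on low values, 3 scalings, limma with trend and robust variance, and leaving out each time.

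The members and lists were chosen with earlier results of these data known. Named genes are the members, Upf3a, up to 4 called genes per list by the arm difference and 2 by the slope, ranked by moderated t, and the 3 genes most correlated with Ern1, Xbp1 and Hspa5; 1 gene that this rule picks is not reported here, and marker genes are named as examples of level only, chosen after their values were seen. Of 274 list genes 6 were matched by an older name and 1 was not matched. Coordinates are of GENCODE vM21 (GRCm38). Of its genes shared with the table, 96.8% lay at the same place within a wide tolerance, which is not a match of exact coordinates. Among the members, Edem1 and Sdf2l1 had the same start and end in both. Other loci differed, as for Ern1, which starts at 106394650 in GENCODE and at 106397620 in the table. Hspa5 ends at 34777547 in GENCODE and at 34776529 in the table.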

Additional observations from a re-analysis of the deposited data

How the results depend on the processing

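The calls that Xbp1, Ern1 and Herpud1 were lower in the knockdown arm, and that Xbp1, Herpud1 and Dnajb9 fell over time, held under every alternative in which each was tested. Scaling to ribosomal protein genes changed most, and 77 of these 78 genes rose before it. The scaling gave 3 members lower and 1 higher, 1256 genes lower, 10 members falling and 0 rising, and 10719 genes falling and 42 rising. Its slopes were -0.193 for Hsp90b1, -0.214 for Dnajc3, -0.187 for Pdia4, -0.250 for Edem1 and -0.109 for Sdf2l1, and -0.0623 for Bax, -0.0522 for Bloc1s1, -0.0590 for Ddost, -0.0625 for P4hb, -0.0501 for Pdia5 and -0.0781 for Sparc; its arm difference was 0.0641 for Pdia4, and its slope differences were -0.0149 for Hspa5 and -0.0269 for Dnajc3. Quantile normalization gave 2 rising members, slopes of -0.191 for Hspa5, -0.0892 for Hsp90b1 and -0.0133 for Pdia4, an arm difference of -0.0468 for Hsp90b1 and a slope difference of -0.0024 for Hspa5. A pseudocount of 5 gave 1 member higher (Hspa5) and a slope difference of 0.0018 for Ern1. A mean FPKM of 5 or more, which leaves out Ern1 and Dnajb9, gave 1656 genes lower, 2685 falling and 2 members falling. For the slope difference over all genes, no filter gave 0 higher, and limma with trend and robust variance gave 3 higher and 3 lower. Apart from the construction of these filters and scalings, the cause was not tested.

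Leaving out each time in turn gave 3 to 4 rising members, and 2 to 10 genes with a higher and 0 to 12 with a lower slope difference. The slope of Hspa5 ranged from -0.0154 to 0.0438. Slope differences ranged from -0.0367 to 0.0284 for Ern1, -0.0103 to 0.0348 for Hspa5, -0.0338 to 0.0712 for Hsp90b1, -0.0029 to 0.0132 for Dnajc3, -0.0274 to 0.0506 for Herpud1, -0.0036 to 0.0013 for Pdia4, -0.0149 to 0.0118 for Edem1 and -0.0082 to 0.0052 for Sdf2l1. None of the 10 slope differences passed the threshold in any alternative. The fit of the arm difference already pairs the arms by time; cultures could not be paired, since each condition has 1 deposited value. Depth is unknown, so precision rests on the limits of the deposited table.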
